A study of Mus musculus with 30 samples.

Results

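The genes described here are 37 genes that encode pyruvate dehydrogenase, the enzymes of the tricarboxylic acid (TCA) cycle and those that break down branched-chain amino acids, chosen by symbol from the 52550 genes of a mouse cardiac myocyte RNA-seq table. The rule uses gene symbols and no measured value, and all 37 passed the filter on low counts, which left 15587 genes for testing. They comprise 21 genes of pyruvate dehydrogenase and the TCA cycle and 16 genes of the branched-chain amino acid pathway. The 30 libraries form 6 groups of 5. Mice of the Myh6-Cre:DspW/F genotype and wild types were each sampled on regular activity at 3 months of age, and at 6 months either on regular activity or after exercise. In Myh6-Cre:DspW/F, called heterozygotes here, Cre recombinase is driven by the Myh6 promoter, which is active in cardiac myocytes, and 1 of the Dsp alleles (desmoplakin, a protein that anchors the cytoskeleton at the desmosome) carries recombination sites. Whether wild types carried Myh6-Cre, what the exercise was, and whether each library is a separate animal are not in the labels, so p-values measure the spread between these libraries only.

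Pyruvate dehydrogenase turns pyruvate into acetyl-CoA, which citrate synthase feeds into the TCA cycle. The cycle oxidises the acetyl group and hands electrons to the respiratory chain, in part directly through succinate dehydrogenase, which is also complex II of that chain. Leucine, isoleucine and valine are transaminated, then oxidised by a branched-chain ketoacid dehydrogenase built like pyruvate dehydrogenase, and their carbon enters the cycle as acetyl-CoA or succinyl-CoA. The heart oxidises mainly fatty acids, and the cycle is the shared end of all these fuels.

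Libraries held 11232143 to 23710331 counts in genes, and the lowest count of any of the 37 genes in any library was 134, for Mccc1. Dsp averaged 765 counts per 1000000 (CPM) in heterozygotes and 1079 in wild types at 3 months. At 6 months the means were 625.6 and 784 CPM on regular activity, and 847.8 and 1561 CPM after exercise. The groups overlapped each time. Heterozygote 3 at 3 months had 1126 CPM, above wild types 1 and 4 (759.8 and 752.3 CPM). The other heterozygotes of that age had 573 to 740.7 CPM. At 6 months heterozygotes reached 679.8 CPM against 635.8 CPM in the lowest wild type, and 938.9 against 928.1 CPM with exercise. Dsp therefore does not bear out the label of every library. Fits without 3-month heterozygote 3 are given below. Ventricular myocyte markers summed to 65350 to 107800 CPM in every library, so the labelled cell type was present throughout. Exercised wild type 1 and exercised heterozygote 4 stood apart. Fibroblast markers, 8 genes, summed to 306.7 and 728.7 CPM in them, against group medians of 141.5 and 160.5, and macrophage markers, 7 genes, to 50.8 and 120.4 CPM, against 15.94 and 26.29. In exercised wild type 1 mitochondrially encoded genes took 46.9% of the counts. Spike-in rows had values for 3 controls at 3 months, for 11 to 18 at 6 months with regular activity and for 0 with exercise, so the library sets follow age and exercise and cannot be told apart from them.

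Per kilobase of exon, the most abundant of the 37 transcripts was Mdh1, the cytosolic malate dehydrogenase, at 804.5 ± 117.3 CPM per kb (SD, n = 30). Idh2, the mitochondrial isocitrate dehydrogenase that makes NADPH, followed at 726.1 ± 150.3 CPM per kb, and Ogdh, the substrate-binding subunit of oxoglutarate dehydrogenase, at 677.6 ± 89.23 CPM per kb. These levels lay within their spread of each other. Below them came a gap to Sdhd and Sdhb, subunits of succinate dehydrogenase, at 388.8 ± 99.3 and 383.8 ± 79.96 CPM per kb. The branched-chain genes were far lower, from Ivd, the isovaleryl-CoA dehydrogenase of leucine breakdown, at 80.4 ± 16.25 CPM per kb down to Pcca, a subunit of propionyl-CoA carboxylase, at 5.452 ± 0.9868 and Mccc1, a subunit of methylcrotonyl-CoA carboxylase, at 1.663 ± 0.4809 CPM per kb. Exons of 9 of the 37 genes overlap exons of another gene, and since no strand setting for counting is given, their values are uncertain to that extent. The largest share was that of Pcca, with 14895 counts in all against 5841 for its overlapping neighbour Ggact.

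At 3 months no call between the genotypes was made for any of these genes. The log2 fold change of heterozygotes against wild types was above 0 for 16 genes and below 0 for 21, with a median of -0.03, while 50.3% of all genes tested were below 0. In edgeR none of the 37 was called (adjusted p under 0.05), against 0.192% of all genes, 3 had an unadjusted p under 0.05, against 11% of all genes, and DESeq2 and limma-voom called 0 as well. Without heterozygote 3 the median of the 37 was -0.08 and edgeR again called 0 of them, while its calls over all genes went from 30 to 70. The 4 pyruvate dehydrogenase genes were all above 0, with a median of 0.15, and the 4 leucine genes all below 0, with a median of -0.08. Within the branched-chain ketoacid dehydrogenase group the kinase and the phosphatase had opposite signs. Bckdk, the kinase that inactivates the complex, measured 159.6, 166.3, 173.2, 160.5 and 179.6 CPM in heterozygotes and 209.4, 204.8, 158.7, 199.2 and 232.9 CPM in wild types, where the third library fell below all heterozygotes (log2 fold change -0.26, SE 0.11, edgeR adjusted p = 0.3372). Ppm1k, the phosphatase that activates it, had a log2 fold change of 0.24 (SE 0.16). Ogdh measured 3143, 3208, 3710, 4152 and 3559 CPM in heterozygotes and 4497, 4372, 3649, 4102 and 4306 CPM in wild types, which overlap (log2 fold change -0.24, SE 0.11, edgeR adjusted p = 0.4194). Cs, citrate synthase, was the 1 gene of the 37 whose groups did not overlap, at 1438 to 1572 CPM in heterozygotes and 1599 to 1855 CPM in wild types, and 0.757% of all genes had heterozygotes below every wild type.

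At 6 months with regular activity 36 of the 37 genes had lower values in heterozygotes, by small amounts that did not pass the test gene by gene. The median log2 fold change was -0.25 (range -0.54 to 0.07), against a median of -0.0035 over all genes, of which 50.5% were below 0. The exception was Hibch, the hydroxyisobutyryl-CoA hydrolase of valine breakdown, at 0.07. In edgeR 0 of the 37 passed, against 0.135% of all genes, 18 had an unadjusted p under 0.05, against 8.79% of all genes, DESeq2 called 0 (55 of all genes) and limma-voom 9 (476 of all genes). Averaged over the 37 genes, log2 CPM was 8.04 ± 0.09 (SD, n = 5) in wild types and 7.78 ± 0.07 in heterozygotes, with all heterozygotes (7.73 to 7.90) below all wild types (7.92 to 8.13).

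**Figure D1:**
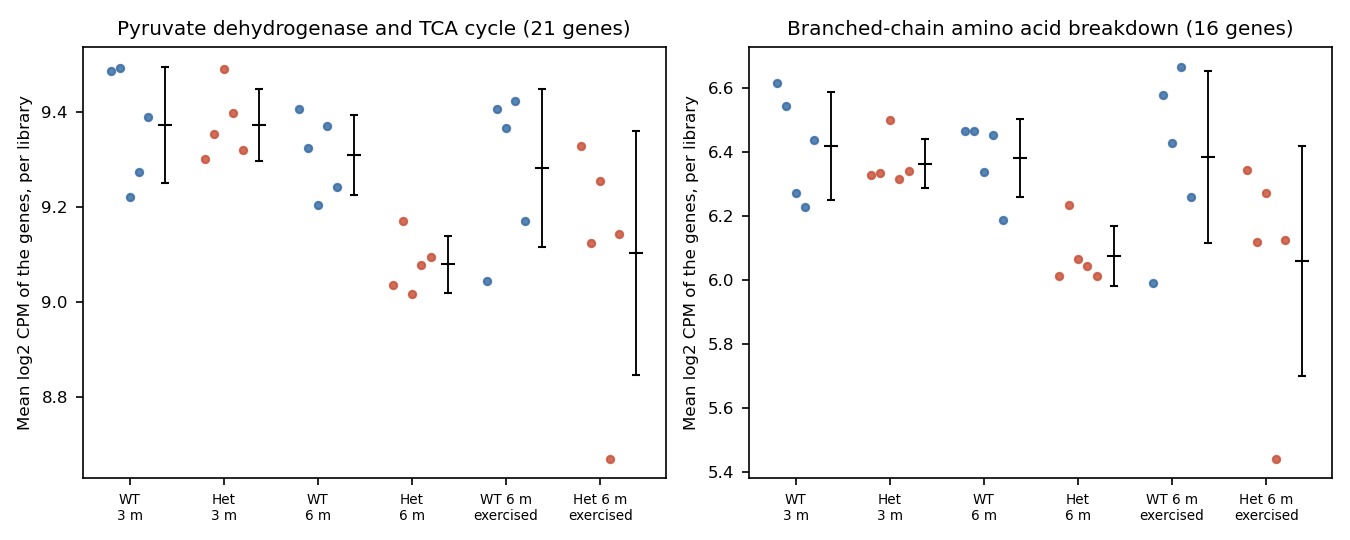
Mean log2 CPM of the 21 pyruvate dehydrogenase and TCA genes (left) and the 16 branched-chain amino acid genes (right), 1 point per library, in wild types (WT, blue) and heterozygotes (Het, red) at 3 and 6 months; black marks give mean ± SD (n = 5). At 6 months with regular activity the heterozygotes lie at 9.02 to 9.17 on the left, below all wild types at 9.20 to 9.41, and on the right at 6.01 to 6.24 against 6.19 to 6.47; the lowest point in each panel is exercised heterozygote 4.

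Every step of the TCA cycle had this sign. Median log2 fold changes at 6 months were -0.14 for the 4 pyruvate dehydrogenase genes, -0.26 for the 5 genes from citrate synthase to oxoglutarate, -0.25 for the 5 genes of oxoglutarate dehydrogenase and succinyl-CoA ligase, -0.26 for the 4 succinate dehydrogenase genes and -0.17 for fumarase and the malate dehydrogenases, 3 genes. The medians were -0.39 for the 6 genes of transamination and branched-chain ketoacid dehydrogenase, -0.36 for the 4 leucine genes, -0.22 for the 4 valine genes and -0.28 for the 2 propionyl-CoA carboxylase genes. Among succinyl-CoA ligase genes the values were alike for Suclg1, the shared subunit (-0.19, SE 0.13), Sucla2, which makes the enzyme form ATP (-0.19, SE 0.14), and Suclg2, which makes it form GTP (-0.29, SE 0.11). The same held for the subunits of the NAD-dependent isocitrate dehydrogenase, Idh3a (-0.15, SE 0.10), Idh3b (-0.26, SE 0.13) and Idh3g (-0.31, SE 0.10).

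The smallest edgeR p of the 37 belonged to Sdhc, a membrane anchor of succinate dehydrogenase, which measured 568.2, 652.1, 549.5, 617.2 and 477.5 CPM in heterozygotes and 758.9, 797.5, 687.9, 766.6 and 795.9 CPM in wild types. All 5 heterozygotes were below all 5 wild types (log2 fold change -0.41, SE 0.12, adjusted p = 0.2535). Bckdk measured 135, 181.8, 146.1, 175.4 and 140.5 CPM in heterozygotes and 211.3, 193.6, 187.7, 226.3 and 177.6 CPM in wild types (log2 fold change -0.36, SE 0.11, edgeR adjusted p = 0.2574). Here only wild type 5 fell among the heterozygotes. The groups did not overlap for 9 of the 37 genes, all with heterozygotes lower, against 2.16% of all genes in that direction: Idh3g, Dlst, Sdhc, Fh1, Ppm1k, Dbt, Mccc2, Hibadh and Aldh6a1. Mccc2, the other subunit of methylcrotonyl-CoA carboxylase, had the most negative fold change, with 55.12, 65.1, 53.67, 53.55 and 53.19 CPM in heterozygotes against 66.61 to 95.52 CPM in wild types (log2 fold change -0.54, SE 0.16).

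**Figure D2:**
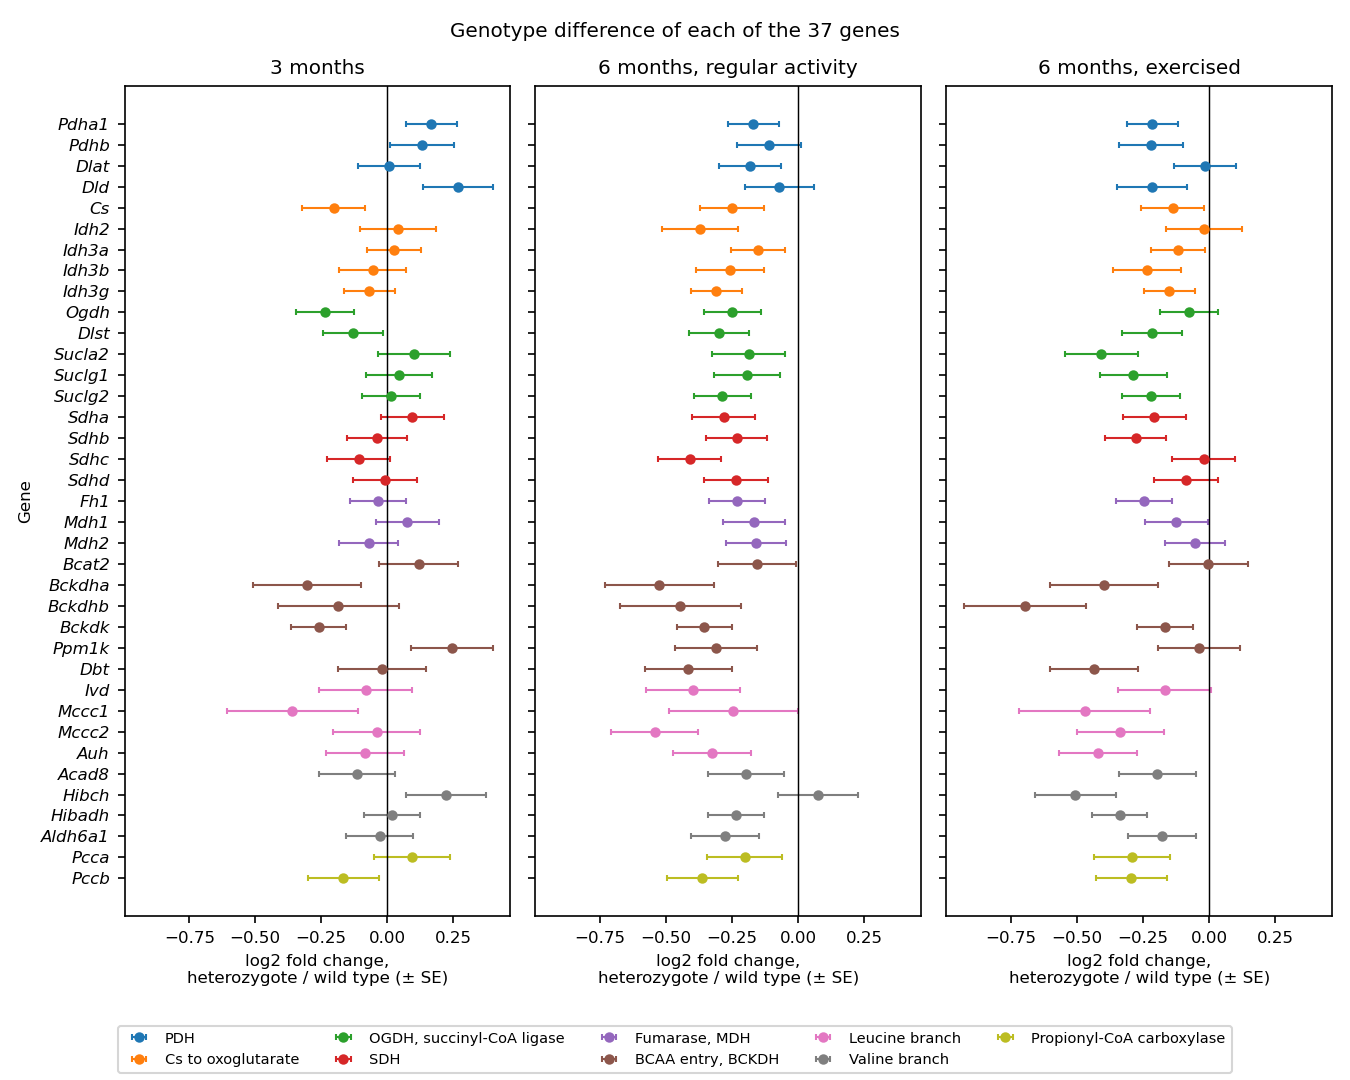
Log2 fold change of heterozygotes against wild types for each of the 37 genes (points, with bars of ± 1 SE from the edgeR fit, 5 libraries per group) in 3-month-old mice and in 6-month-old mice on regular activity or after exercise, coloured by step of the pathway. Points scatter about 0 at 3 months (median -0.03) and lie left of 0 for 36 genes at 6 months (median -0.25) and for 37 genes with exercise (median -0.22).

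The branched-chain ketoacid dehydrogenase genes showed the lowest values next to Mccc2: Bckdha and Bckdhb, which form the decarboxylase, at -0.53 (SE 0.20) and -0.45 (SE 0.23), and Dbt, the transacylase, at -0.42 (SE 0.17). In this age group Bckdk and Ppm1k (-0.31, SE 0.16) had the same sign, so the kinase and the phosphatase did not part. Bcat2, the mitochondrial transaminase, had -0.16 (SE 0.15). In leucine breakdown Ivd had -0.40 (SE 0.18), Mccc1 -0.25 (SE 0.25) and Auh, the methylglutaconyl-CoA hydratase, -0.33 (SE 0.15). In valine breakdown Acad8, the isobutyryl-CoA dehydrogenase, had -0.20 (SE 0.14), Hibadh, the hydroxyisobutyrate dehydrogenase, -0.24 (SE 0.10) and Aldh6a1, the methylmalonate semialdehyde dehydrogenase, -0.28 (SE 0.13). Pcca and Pccb, which carboxylate propionyl-CoA, had -0.20 (SE 0.14) and -0.36 (SE 0.13).

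Marker lists of other cells differed in sign and summed level between the genotypes at this age, but edgeR called 0 markers of any list. All 8 fibroblast markers were above 0, summing to 334.8 to 490.8 CPM in heterozygotes and 174.8 to 201.7 CPM in wild types, and all 7 macrophage markers were above 0, summing to 46.64 to 90.76 and 14.71 to 28.68 CPM, with none of them at 0 in either group. All 7 endothelial (median 0.38) and all 5 pericyte and smooth muscle markers (median 0.50) were above 0 too. Other lists went the other way. Erythroid (5 of 5, median -1.27), adipocyte (3 of 3 tested, median -1.34) and Schwann markers (2 of 2 tested, median -0.16) were below 0. Of 3 atrial markers 2 were above 0, as was the 1 lymphocyte and neutrophil marker tested. Of 10 ventricular myocyte markers 8 were below 0 (median -0.14), with overlapping sums of 65350 to 83710 CPM in heterozygotes and 70310 to 90470 CPM in wild types. Their part in the lower values of the 37 genes was not tested, and in bulk RNA fewer cells of a type and less RNA per cell cannot be told apart. When only the 10 libraries of these groups were fitted, edgeR called 2 of the 37, Dbt and Mccc2, and 218 of all genes, against 21 of all genes when all libraries were fitted.

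The nearby genes of pyruvate entry followed the same sign at 6 months. Of 10 genes of that list 8 were below 0 (median -0.24), and 1 was called: Pdk1, a kinase that inactivates pyruvate dehydrogenase, with a log2 fold change of -0.58 (SE 0.12, edgeR adjusted p = 0.02437). Of 14 regulators of these genes 13 were below 0 (median -0.25) with 0 called. The lists of other TCA and anaplerotic genes (11 of 15 below 0), of succinate dehydrogenase assembly and lipoylation (4 of 7) and of further branched-chain breakdown and transport (12 of 16) had 0 called.

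With exercise all 37 genes were below 0 in heterozygotes against wild types, Hibch now among them at -0.51, with a median of -0.22, against 51.4% of all genes below 0. In edgeR 0 of the 37 passed, against 0.404% of all genes, 11 had an unadjusted p under 0.05, against 9.78% of all genes, DESeq2 called 0 (196 of all genes) and limma-voom 2 (194 of all genes). No gene of the 37 had groups that did not overlap, against 0.828% of all genes with heterozygotes lower. Exercised heterozygotes averaged 7.79 ± 0.30 log2 CPM over the 37 genes and exercised wild types 8.03 ± 0.21 (SD, n = 5). Without exercised wild type 1 and heterozygote 4 the median was -0.17 and 0 genes were called, and without heterozygote 4 alone the median was -0.12. Fibroblast markers (8 of 8 above 0, median 0.61) and macrophage markers (7 of 7, median 0.63) were above 0, with 0 called in edgeR and sums of 98.21 to 728.7 CPM and 15.49 to 120.4 CPM in heterozygotes overlapping those of wild types, 88.79 to 306.7 CPM and 10.84 to 50.8 CPM. Endothelial (6 of 7 below 0, median -0.37) and pericyte and smooth muscle markers (4 of 5 below 0, median -0.30) had the opposite sign, also with 0 called. So did erythroid (5 of 5 below 0, median -2.08) and adipocyte markers (3 of 3 tested, median -3.44), with 0 called. Atrial (3 of 3, median 0.42) and Schwann markers (2 of 2 tested, median 0.16) were above 0. Ventricular myocyte markers were below 0 for 7 of 10 genes (median -0.19), with 0 called. Their sums overlapped, at 74310 to 95190 CPM in heterozygotes and 76190 to 107800 CPM in wild types. The part of these lists was not tested.

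The order of the genes in the exercised comparison was another than with regular activity. Hibch had the smallest p, at 38.93, 29.38, 34.19, 30.86 and 28.43 CPM in heterozygotes and 31.79, 53.13, 50.31, 53.98 and 40.41 CPM in wild types, where only wild type 1 fell among the heterozygotes (log2 fold change -0.51, SE 0.15, edgeR adjusted p = 0.1507). Without wild type 1 it was called (-0.62, edgeR adjusted p = 0.04069). Hibadh measured 123.4, 113.6, 115, 81.06 and 96.23 CPM in heterozygotes and 110.8, 146.2, 142.8, 154.4 and 114.9 CPM in wild types, which overlap (log2 fold change -0.34, SE 0.10, edgeR adjusted p = 0.1713). Bckdhb (-0.70, SE 0.23) and Sucla2 (-0.41, SE 0.14) had the next smallest p, whereas Sdhc, first with regular activity, stood at -0.02 (SE 0.12). Across the 37 genes the fold changes with genotype in the regular-activity and in the exercised groups, which share no library, had a Pearson r of 0.15 (0.26 over all 15587 genes); genes are not independent replicates.

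The difference between these genotype effects was tested as an interaction. It called 0 of the 37 in edgeR, DESeq2 and limma-voom, against 0.0128% of all genes in edgeR, and 2 of the 37 had an unadjusted p under 0.05, against 4.91% of all genes. The median was 0.07, with 14 of the 37 below 0, against 48.7% of all genes, and it ranged from -0.05 to 0.16 when 1 library was left out. Hibch had an interaction of -0.58 (SE 0.21, edgeR adjusted p = 0.9041), with 41.11, 32.34, 33.04, 34.19 and 42.45 CPM in heterozygotes and 37.93, 32.87, 28.71, 39.94 and 34.44 CPM in wild types under regular activity, where the groups overlapped. Sdhc had 0.39 (SE 0.17, edgeR adjusted p = 0.9821).

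With exercise the subunits of succinate dehydrogenase differed in which were called, and a difference between subunits was not tested. In wild types Sdhb, Sdhc and Sdhd fell, while Sdha did not pass the test. In heterozygotes Sdhb and Sdhd fell, and neither Sdha nor Sdhc passed. Sdha carries the flavin that oxidises succinate, Sdhb the iron-sulfur clusters, and Sdhc and Sdhd anchor the enzyme in the inner membrane. In edgeR 4 of the 37 genes were called in wild types, 1 higher and 3 lower, and 4 in heterozygotes, 2 higher and 2 lower. Of all genes 9.69% were called in wild types (4.64% higher, 5.05% lower) and 8.82% in heterozygotes (5.34% higher, 3.48% lower), so the share of the 37 genes was close to that of the transcriptome. The median of the 37 was 0.06 in wild types, with 17 genes below 0 (49.3% of all genes), and 0.02 in heterozygotes, with 15 below 0 (50.4% of all genes). The median in heterozygotes turned to -0.08 without exercised heterozygote 1 and was 0.13 without exercised heterozygote 4. At an unadjusted p under 0.05 there were 12 of the 37 in wild types, against 22.8% of all genes, and 7 in heterozygotes, against 22.3%. Exercised libraries lay below all others for 4 of the 37 genes in wild types (Idh3g, Sdhb, Sdhc and Sdhd), against 5.58% of all genes, and for 3 in heterozygotes (Sdhb, Sdhd and Acad8), against 4.02%.

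RefSeq promoter windows on GRCm38.p6, from 250 bases before to 50 after the annotated start, were found for 34 of the 37 genes. Those of the 3 succinate dehydrogenase genes among them are shown because these genes were not all called alike with exercise. RefSeq starts can differ from those of the GENCODE positions. The windows of Sdha and Sdhb run into the GENCODE spans given below. Capitals would mark 6 motifs, searched on both strands: the estrogen-related receptor element TCAAGGTCA and its core AAGGTCA, which it contains, the NRF1 element, the GABPA element CCGGAAGT, the CREB element TGACGTCA and the E-box CACGTG. The 250 bases before each start hold none of them.
Sdha, chr13:74350241-74350490, minus strand: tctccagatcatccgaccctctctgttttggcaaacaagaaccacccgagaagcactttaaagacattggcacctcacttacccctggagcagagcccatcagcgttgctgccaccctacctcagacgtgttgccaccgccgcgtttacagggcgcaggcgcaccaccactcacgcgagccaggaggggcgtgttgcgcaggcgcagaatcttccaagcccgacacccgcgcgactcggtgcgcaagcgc
Sdhb, chr4:140961021-140961270, plus strand: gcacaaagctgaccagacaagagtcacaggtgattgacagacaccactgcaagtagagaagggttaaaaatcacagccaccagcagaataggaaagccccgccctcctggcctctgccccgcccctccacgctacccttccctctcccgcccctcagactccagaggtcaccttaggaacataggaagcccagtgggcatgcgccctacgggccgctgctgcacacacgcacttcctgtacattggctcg
Sdhd, chr9:50603850-50604099, minus strand: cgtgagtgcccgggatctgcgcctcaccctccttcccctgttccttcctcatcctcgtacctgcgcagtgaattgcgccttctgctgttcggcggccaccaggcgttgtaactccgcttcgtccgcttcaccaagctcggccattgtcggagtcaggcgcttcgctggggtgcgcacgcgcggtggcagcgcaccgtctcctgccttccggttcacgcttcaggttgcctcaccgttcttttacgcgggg
Just after the start, Sdhd alone of the 34 genes has the full estrogen-related receptor element, read here on the opposite strand and set in capitals.
Sdhd, chr9:50603800-50603823, minus strand: ggttgtagagTGACCTTGAgccct
The full element was in 0.423% of 32851 promoters and in 1 of the 43 promoters of these 34 genes, and its core in 4.72% and in 2 of the 43. A match of letters is a description of the sequence and not evidence of binding.

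Sdhd (chr9:50596357-50603812, GRCm38) measured 288.1, 431.7, 397, 377.4 and 287 CPM in exercised wild types and 546.8, 465.9, 454.1, 602.7 and 584.3 CPM under regular activity. All 5 exercised libraries were below the others, and Sdhd fell by 32.87% (log2 fold change -0.58, SE 0.12, edgeR adjusted p = 0.002235). In heterozygotes it measured 378.7, 346.2, 360.5, 265.2 and 327.4 CPM with exercise and 437.8, 437.7, 407.4, 489.6 and 479.3 CPM without, again with no overlap (log2 fold change -0.42, SE 0.12, edgeR adjusted p = 0.02451).

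Sdhc (chr1:171127165-171150603, GRCm38) measured 415, 570.7, 548.5, 569.9 and 560.8 CPM in exercised wild types against 687.9 to 797.5 CPM in those with regular activity, listed above. The groups did not overlap (log2 fold change -0.51, SE 0.12, edgeR adjusted p = 0.004837). In heterozygotes, whose regular-activity level already lay at 477.5 to 652.1 CPM, it measured 591.3, 556.2, 572.8, 361.7 and 545.6 CPM after exercise, which overlap (log2 fold change -0.12, SE 0.12, edgeR adjusted p = 0.6073). The difference between these responses is the interaction of 0.39 given above, which did not pass.

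Sdhb (chr4:140961203-140979193, GRCm38) measured 621.4, 798.4, 799.9, 819.1 and 683.2 CPM in exercised wild types and 1028, 917.9, 845.4, 1062 and 906.9 CPM under regular activity, with no overlap (log2 fold change -0.36, SE 0.12, edgeR adjusted p = 0.04571). In heterozygotes it measured 719.5, 597.4, 695.8, 463.8 and 593.8 CPM with exercise and 788.7, 804.1, 744.8, 881.5 and 830.7 CPM without, also with no overlap (log2 fold change -0.40, SE 0.12, edgeR adjusted p = 0.02538). Sdha (chr13:74322254-74350280, GRCm38) measured 1105 to 1540 CPM in exercised wild types and 1140 to 1389 CPM under regular activity (log2 fold change 0.13, SE 0.12, edgeR adjusted p = 0.6043). In heterozygotes it had a log2 fold change of 0.20 (SE 0.12, edgeR adjusted p = 0.3419).

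**Figure D3:**
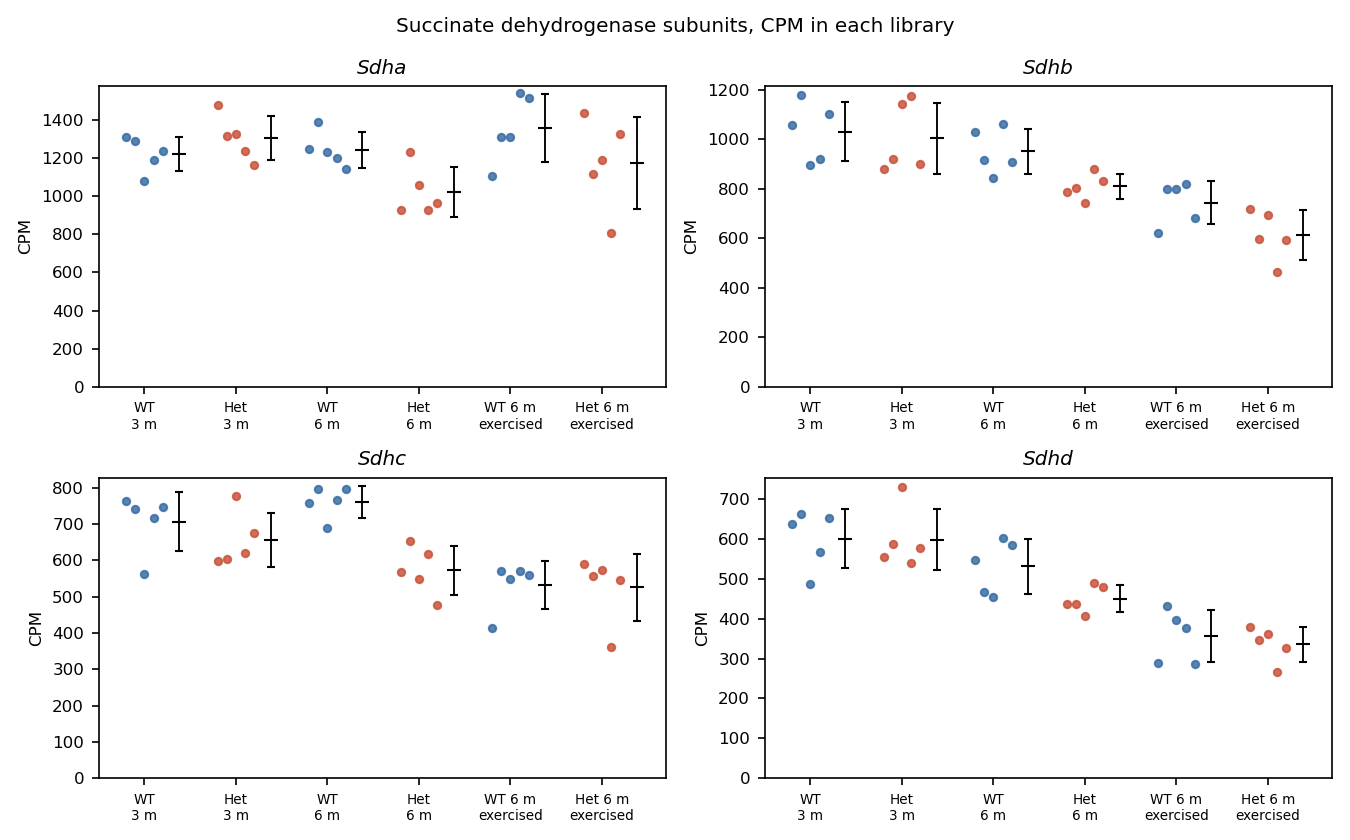
CPM of the succinate dehydrogenase subunits Sdha, Sdhb, Sdhc and Sdhd in each library (points; wild types blue, heterozygotes red), with mean ± SD in black (n = 5) for the 6 groups. In wild types at 6 months the exercised points of Sdhd (287 to 431.7), Sdhc (415 to 570.7) and Sdhb (621.4 to 819.1) all lie below the regular-activity points, while those of Sdha overlap.

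The calls of Sdhd and Sdhc in wild types stayed in every fit that left out 1 library. That of Sdhb in wild types was lost without regular-activity wild types 1, 2, 4 or 5 or any of the 5 exercised ones (edgeR adjusted p 0.05082 to 0.1327), and with trends on exon length and GC content removed it dropped to -0.17 (edgeR adjusted p = 0.4126). In heterozygotes Sdhd and Sdhb both lost the call without regular-activity heterozygote 4 (edgeR adjusted p = 0.06825 and 0.07203) or exercised heterozygote 4 (0.06464 and 0.06844), and Sdhb also with those trends removed (-0.26, edgeR adjusted p = 0.1455). Across the 37 genes the exercise fold change in wild types went with exon length (Spearman rho 0.45, against 0.11 over 15568 genes). It went against GC content (-0.45, against -0.35). Exon length was 1231 bases for Sdhd, 2239 for Sdhb, 3250 for Sdhc and 4126 for Sdha, the subunit that was not lower. With the trends removed Sdhd and Sdhc kept their calls in wild types, and Sdhd in heterozygotes.

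On the pyruvate side the sign was the opposite: all 4 pyruvate dehydrogenase genes were above 0 with exercise in both genotypes, with medians of 0.25 in wild types and 0.20 in heterozygotes. Dld (chr12:31331277-31351453, GRCm38), the dihydrolipoyl dehydrogenase shared by the pyruvate, oxoglutarate and branched-chain complexes, measured 263.3, 310.4, 319, 318 and 244.6 CPM in exercised wild types and 256.2, 188.6, 196.8, 229.1 and 226 CPM under regular activity. It rose by 32.7% (log2 fold change 0.41, SE 0.13, edgeR adjusted p = 0.04331), with regular-activity wild type 1 above exercised wild type 5. The call was lost without regular-activity wild types 2, 3, 4 or 5 or exercised wild types 2, 3 or 4 (edgeR adjusted p 0.0674 to 0.1238). In heterozygotes Dld had 0.26 (SE 0.13, edgeR adjusted p = 0.233).

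Dlat (chr9:50634633-50659780, GRCm38) encodes the acetyltransferase core of pyruvate dehydrogenase. It lies on the same chromosome as Sdhd (chr9:50596357-50603812), does not overlap it, and had the opposite course. It measured 716, 755.2, 813.1, 481.5 and 753.2 CPM in exercised heterozygotes and 531.9, 535.8, 498, 510.5 and 554.7 CPM under regular activity. In 4 of 5 exercised libraries it was above all others, and exercised heterozygote 4 was below them (log2 fold change 0.42, SE 0.12, edgeR adjusted p = 0.02091). The call was lost without regular-activity heterozygotes 3 or 4 or exercised heterozygotes 1, 2, 3 or 5 (edgeR adjusted p 0.05345 to 0.1082). In wild types Dlat had 0.25 (SE 0.12, edgeR adjusted p = 0.1888), Pdhb, a subunit of the decarboxylase, 0.25 (SE 0.12) and Pdha1, its partner, 0.10 (SE 0.10).

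Aldh6a1, which makes propionyl-CoA at the end of valine breakdown, measured 298.5, 284.1, 273.8, 161.6 and 289 CPM in exercised heterozygotes and 185.8, 216.7, 201.2, 204 and 182.6 CPM under regular activity. As with Dlat, 4 of 5 exercised libraries were above all others and exercised heterozygote 4 below them (log2 fold change 0.40, SE 0.13, edgeR adjusted p = 0.04382). Its call was lost without any 1 of the 5 regular-activity heterozygotes or of exercised heterozygotes 1, 2, 3 or 5 (edgeR adjusted p 0.05118 to 0.1768). Without exercised wild type 1 and heterozygote 4 together, 7 genes were called in heterozygotes, with Ogdh, Bcat2 and Ppm1k joining the 2 that rose, and 5 in wild types, where Hibch and Aldh6a1 joined Dld, and Sdhc and Sdhd but not Sdhb were lower (edgeR).

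**Figure D4:**
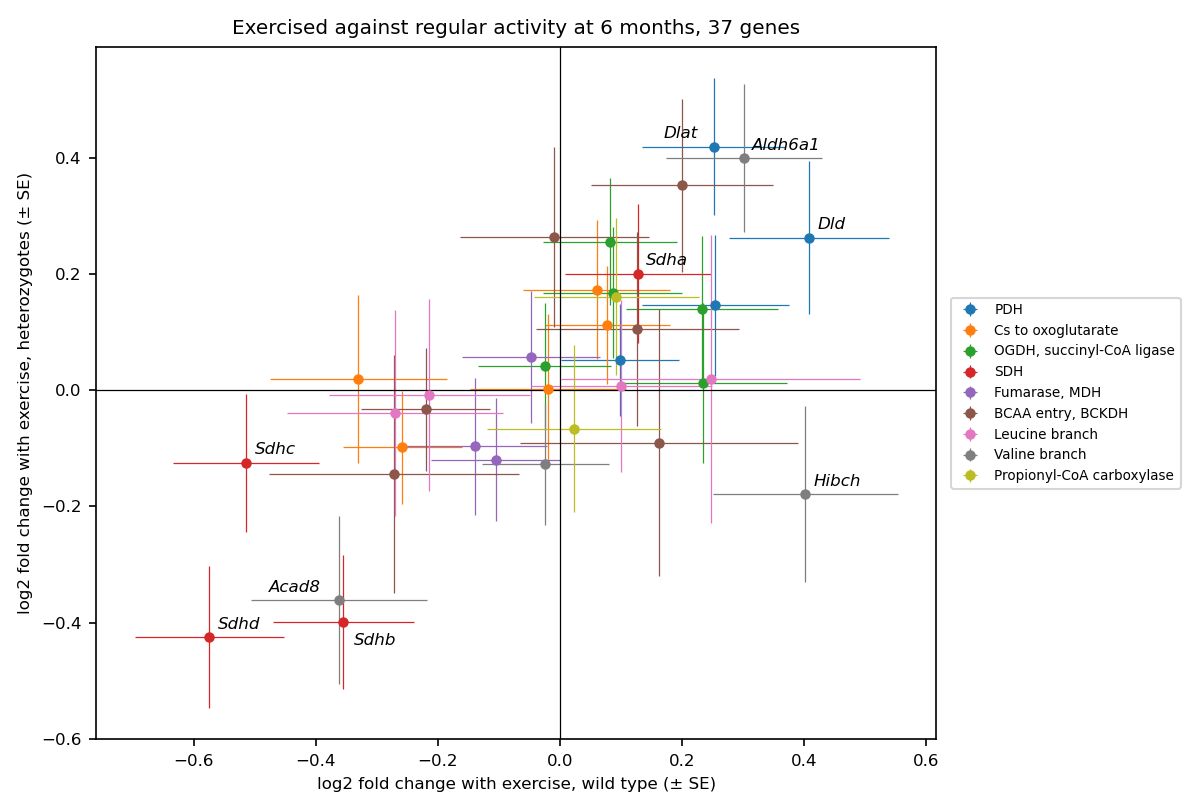
Log2 fold change with exercise at 6 months in wild types (horizontal axis) against that in heterozygotes (vertical axis) for the 37 genes, with bars of ± 1 SE and colours by step of the pathway. Sdhb and Sdhd lie at the lower left (-0.36 and -0.58 in wild types), Dlat, Dld and Aldh6a1 at the upper right, and Hibch apart at 0.40 and -0.18.

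The exercise comparisons in the 2 genotypes share no library, though their libraries belong to the same sets. Their fold changes had the same sign in 29 of the 37 genes, with a Pearson r of 0.68 across genes, against 0.39 over all 15587 genes. Mitochondrially encoded genes took 20.8 to 46.9% of counts in exercised wild types and 22 to 38.1% in exercised heterozygotes, against 13.3 to 17.6% and 11.7 to 26.7% under regular activity, and 8 of 10 myocyte markers were above 0 in either genotype (medians 0.24 and 0.23, 3 called in each). Fibroblast markers were below 0 for 7 of 8 genes in either genotype, with 0 called. Endothelial markers were above 0 for 6 of 7 genes in wild types and below 0 for 6 of 7 in heterozygotes, with 0 called. The part of these shifts in the exercise results was not tested.

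Genes around the pathway were also called in both directions with exercise, where 9.69% of all genes were called in wild types and 8.82% in heterozygotes. Mpc2, a subunit of the carrier that brings pyruvate into mitochondria, fell by 0.56 in wild types and 0.51 in heterozygotes on the log2 scale (edgeR adjusted p = 0.007649 and 0.01507), and its partner Mpc1 fell by 0.56 in heterozygotes (edgeR adjusted p = 0.02716). Pdpr, a regulator of pyruvate dehydrogenase phosphatase, rose in heterozygotes (0.40, edgeR adjusted p = 0.03281), as did Got1, the cytosolic aspartate aminotransferase (0.46, edgeR adjusted p = 0.02888). Echs1, an enoyl-CoA hydratase, fell in both genotypes, by 0.48 in wild types and 0.52 in heterozygotes on the log2 scale (edgeR adjusted p = 0.007819 and 0.005124).

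Among the 14 regulators 4 rose and 1 fell in wild types, and 4 rose and 0 fell in heterozygotes. Of all genes 4.64% were called higher and 5.05% lower in wild types, and 5.34% and 3.48% in heterozygotes. Ppargc1a, a coactivator of mitochondrial gene expression, rose by 1.04 in wild types and 0.83 in heterozygotes on the log2 scale (edgeR adjusted p = 0.008271 and 0.03596). Members of the estrogen-related receptor family went different ways: Esrrg rose in both (0.41 and 0.64, edgeR adjusted p = 0.04295 and 0.001789), Esrrb rose in heterozygotes (0.59, edgeR adjusted p = 0.01524), and Esrra fell in wild types (-0.46, edgeR adjusted p = 0.008875). Gabpa, an ETS factor, rose in both (0.31 and 0.36, edgeR adjusted p = 0.04934 and 0.02355), and Nrip1, a corepressor, in wild types (0.48, edgeR adjusted p = 0.03662).

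Exercised heterozygotes against wild types with regular activity differ in genotype and exercise at once, and these wild types also serve in the genotype and wild-type exercise comparisons. Of the 37 genes 10 fell and 0 rose, against 13.1% of all genes called, 7.2% lower. The median was -0.25, with 31 genes below 0 (49.3% of all genes), and -0.14 without exercised heterozygote 4, and 16 of the 37 had an unadjusted p under 0.05 (25.8% of all genes). Succinate dehydrogenase led: Sdhb had a log2 fold change of -0.63 (SE 0.12, edgeR adjusted p = 0.0003305), Sdhd of -0.66 (SE 0.12, edgeR adjusted p = 0.000368), Sdhc of -0.53 (SE 0.12, edgeR adjusted p = 0.002454), each with all 5 exercised heterozygotes below all 5 wild types in the values given above, while Sdha stood at -0.08 (SE 0.12). In all, 6 of the 37 genes had such groups, against 6.67% of all genes.

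Idh3g, a regulatory subunit of the NAD-dependent isocitrate dehydrogenase, measured 636.1, 513.2, 519.1, 401.7 and 550.4 CPM in exercised heterozygotes and 725.5, 719.1, 626.6, 721.8 and 684.7 CPM in regular-activity wild types, where wild type 3 fell below exercised heterozygote 1 (log2 fold change -0.41, SE 0.10, edgeR adjusted p = 0.004382). The branched-chain genes that fell were Bckdha (-0.67), Bckdk (-0.39), Mccc2 (-0.55), Acad8 (-0.56) and Hibadh (-0.36), and Fh1, fumarase, fell by 0.35 on the log2 scale. Calls were lost for Bckdha without wild types 2, 3 or 4 or exercised heterozygotes 4 or 5, for Fh1 without wild types 1 or 4 or exercised heterozygotes 2 or 4, for Mccc2 without wild types 1 or 4 or exercised heterozygote 4, and for Hibadh without exercised heterozygote 4 (edgeR adjusted p 0.05126 to 0.08858). With length and GC trends removed, Bckdha (-0.42), Mccc2 (-0.44) and Bckdk (-0.28) did not pass (edgeR adjusted p 0.07839 to 0.2056). The pyruvate dehydrogenase genes stood apart in sign, with 3 of 4 above 0, among them Dlat (0.24, SE 0.12). Around the pathway Mpc1 (-0.68), Mpc2 (-0.79), Pdk1 (-0.46), Lipt2, a lipoyl transferase (-0.90), and Echs1 (-0.70) fell, and among regulators Ppargc1a rose (0.89) and Esrra (-0.37), Rxra (-0.37) and Sirt3 (-0.53) fell.

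Between 3 and 6 months fumarase fell in both genotypes. In wild types Fh1 (chr1:175600374-175625635, GRCm38) measured 305.6, 285.7, 263, 301.1 and 270.5 CPM at 6 months and 423.4, 421.2, 331.2, 345.8 and 400.8 CPM at 3 months, with no overlap (log2 fold change -0.43, SE 0.11, edgeR adjusted p = 0.03852). It was the 1 gene of the 37 called in wild types, against 0.86% of all genes. Over the 37 the median was -0.03, with 22 below 0 (48.4% of all genes), and 2 had an unadjusted p under 0.05 (12.2% of all genes). The call was lost without wild types 1, 2 or 5 at 3 months or any 1 of the 5 at 6 months (edgeR adjusted p 0.06731 to 0.1231), and without the low-count filter (edgeR adjusted p = 0.1108). Fh1 and Mdh2, the mitochondrial malate dehydrogenase, were the 2 genes whose wild-type age groups did not overlap, against 2.17% of all genes lower at 6 months.

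In heterozygotes all 37 genes were lower at 6 than at 3 months, with a median of -0.30, and 52.2% of all genes were below 0. In edgeR 4 fell and 0 rose, against 3.43% of all genes called, 1.96% lower, and 18 had an unadjusted p under 0.05, against 19.6% of all genes. Of the 37 genes 8 had all 6-month heterozygotes below all 3-month ones, against 2.84% of all genes. This comparison shares the 6-month heterozygotes with the genotype comparison at that age. Fh1 measured 225.5, 242.1, 242.7, 248.6 and 255.4 CPM at 6 months and 356.4, 381.8, 406.1, 413.4 and 317.5 CPM at 3 months, with no overlap (log2 fold change -0.63, SE 0.11, edgeR adjusted p = 0.0004819). It kept its call in every fit without 1 library.

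Mdh2 (chr5:135778480-135790398, GRCm38) is shown with its promoter because it is 1 of 2 of the 34 genes with the CREB element. Ogdh is the other. The share over all promoters was 1.79%, counted per promoter and not per gene. The element is set in capitals at position -127 from the RefSeq start. That start lies inside the GENCODE span given here, and so does the element.
Mdh2, chr5:135778399-135778648, plus strand: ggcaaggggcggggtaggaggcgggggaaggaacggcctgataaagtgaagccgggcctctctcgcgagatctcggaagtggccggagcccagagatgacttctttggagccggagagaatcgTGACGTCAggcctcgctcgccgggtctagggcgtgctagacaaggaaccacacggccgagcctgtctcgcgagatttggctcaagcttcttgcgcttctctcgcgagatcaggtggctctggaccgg
It measured 544.9, 659.9, 527, 562.3 and 594.2 CPM at 6 months and 655.9, 659.9, 786.4, 931.3 and 788.8 CPM at 3 months in heterozygotes. Only heterozygote 2 at 6 months reached the 3-month range (log2 fold change -0.40, SE 0.11, edgeR adjusted p = 0.04241). In wild types the difference was -0.32 (SE 0.11, edgeR adjusted p = 0.1993).

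Idh2 measured 1449, 2065, 1525, 1529 and 1341 CPM at 6 months and 2328, 2080, 2296, 2703 and 1792 CPM at 3 months in heterozygotes, where 6-month heterozygote 2 again lay in the 3-month range (log2 fold change -0.50, SE 0.14, edgeR adjusted p = 0.04761). Pdha1 measured 555.3, 662.2, 566.8, 542.5 and 615.6 CPM at 6 months and 752.6, 742.4, 790.3, 722.6 and 688.6 CPM at 3 months, with no overlap (log2 fold change -0.33, SE 0.10, edgeR adjusted p = 0.04979). These 3 calls were fragile. Mdh2 lost it without heterozygotes 3, 4 or 5 at 3 months or 1, 3, 4 or 5 at 6 months, Idh2 without 1, 2, 3 or 4 at 3 months or 1, 3, 4 or 5 at 6 months, and Pdha1 without any 1 of the 5 at 3 months or 1, 3, 4 or 5 at 6 months (edgeR adjusted p 0.05819 to 0.1514).

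**Figure D5:**
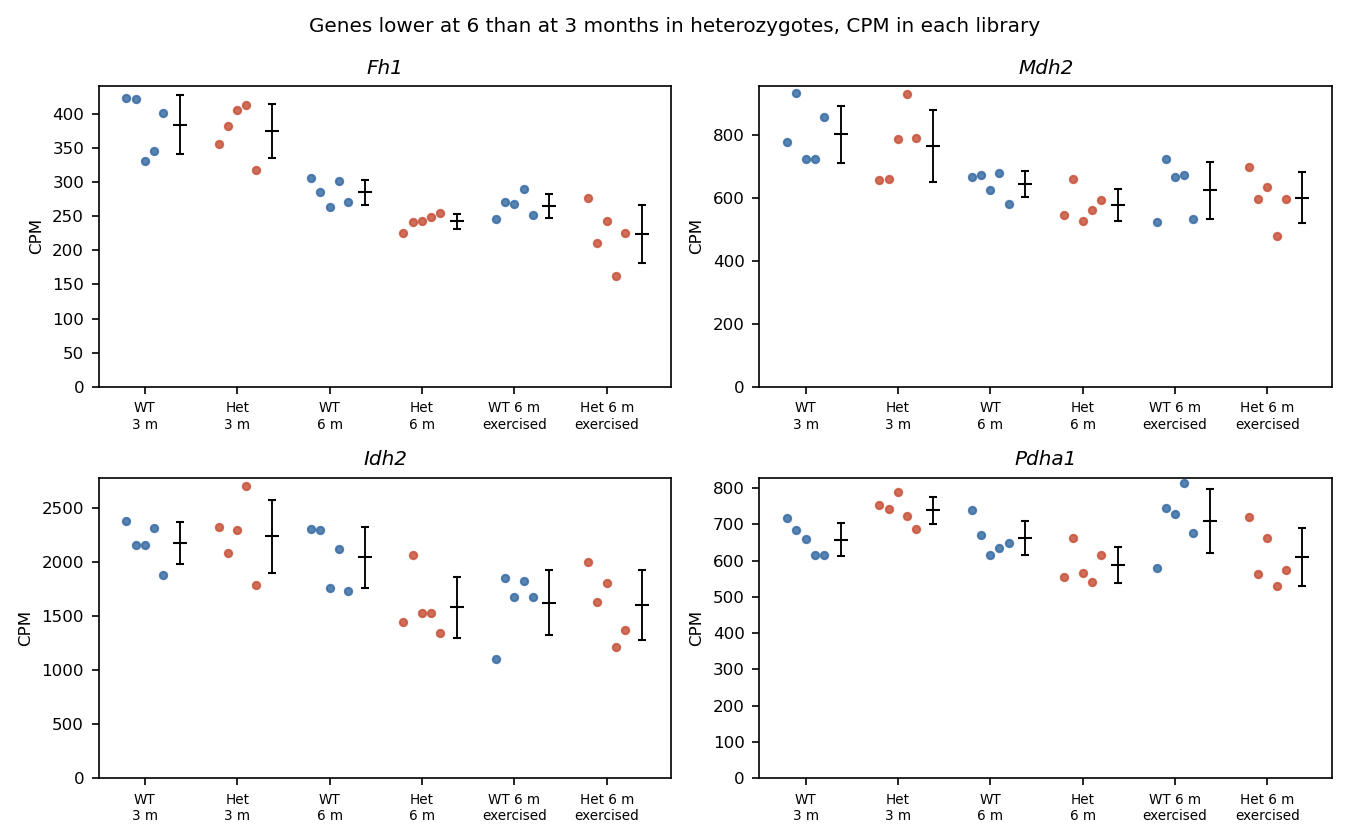
CPM of Fh1, Mdh2, Idh2 and Pdha1 in each library (points; wild types blue, heterozygotes red), with mean ± SD in black (n = 5) for the 6 groups. Heterozygotes at 6 months with regular activity lie below those at 3 months for Fh1 (225.5 to 255.4 against 317.5 to 413.4) and Pdha1 (542.5 to 662.2 against 688.6 to 790.3), and overlap them for Mdh2 and Idh2.

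Marker lists moved with age in heterozygotes as well: 8 of 8 fibroblast markers (median 1.41, 4 called, from 109.8 to 184.5 CPM at 3 months to 334.8 to 490.8 CPM at 6 months) and 7 of 7 macrophage markers (median 1.46, 3 called, from 11.99 to 25.8 CPM to 46.64 to 90.76 CPM) were above 0, and 10 of 10 myocyte markers below 0 (median -0.27, 2 called). Endothelial markers (7 of 7, median 1.10, 2 called) and 4 of 5 pericyte and smooth muscle markers (median 0.86, 1 called) were above 0 too. Adipocyte (3 of 3 tested, median -2.18) and atrial markers (3 of 3, median -1.33) were below 0, with 0 called. In wild types 8 of 10 myocyte markers (median -0.23) and 3 of 3 atrial markers (median -0.89) were below 0 with age too. Above 0 were 5 of 8 fibroblast (median 0.13), 4 of 7 macrophage (median 0.03) and 5 of 7 endothelial markers (median 0.15). So were 3 of 5 pericyte and smooth muscle (median 0.15) and 2 of 3 adipocyte markers tested (median 0.48). None of these wild-type differences was called. The part of these lists in the age result was not tested. Related genes called with age in heterozygotes were Sdhaf2, Esrra and Perm1, against 3.43% of all genes. Their log2 fold changes were -0.44 (edgeR adjusted p = 0.04548), -0.61 (edgeR adjusted p = 0.001704) and -0.42 (edgeR adjusted p = 0.02812). Sdhaf2 helps to add the flavin to Sdha, and Perm1 is a muscle regulator of oxidative genes. In wild types 0 genes of the 5 related lists were called with age in edgeR.

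The age change was more negative in heterozygotes than in wild types for 36 of the 37 genes, with a median interaction of -0.24, against 53.6% of all genes below 0. The exception was Mccc1 (0.11, SE 0.35). This interaction is by definition the genotype difference at 6 months with regular activity minus that at 3 months, in the same libraries. It is therefore not a result separate from those comparisons. Without 3-month heterozygote 3 the median interaction was -0.18, with 0 of the 37 called in edgeR. In edgeR, DESeq2 and limma-voom 0 of the 37 interactions passed, against 0% of all genes in edgeR, and 4 had an unadjusted p under 0.05, against 8.04% of all genes. The smallest p belonged to Ppm1k (-0.55, SE 0.22, edgeR adjusted p = 0.553), which measured 202.3, 216.5, 260.2, 183.9 and 214.4 CPM in heterozygotes at 3 months and 169.6, 193.7, 176.3, 183.9 and 155.8 CPM at 6 months, and in wild types 209.4, 196.9, 144.8, 181.4 and 177 CPM and then 259.9, 223, 213.2, 195.9 and 198.5 CPM. Heterozygotes lay mostly lower and wild types mostly higher at 6 months, with overlap in both. Pdha1 followed (-0.34, SE 0.14, edgeR adjusted p = 0.553), with 717.6, 685.9, 658.7, 614.5 and 615.1 CPM in wild types at 3 months and 738.6, 670.2, 616.5, 635.3 and 649 CPM at 6 months, which overlap.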

How the data were processed

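Total RNA of cardiac myocytes was depleted of ribosomal RNA and made into stranded paired-end libraries, per the labels' protocols. The submitters' processing notes name trimming with Trim Galore, the aligner HISAT2, counting with featureCounts, and mm10. The authors deposited raw counts per gene of all 30 libraries in 1 table of 52573 entries. The 23 spike-in rows were left out, and annotation release and strand setting are not given in the sources used here.

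Genes were kept by filterByExpr over the 6 groups and scaled with TMM factors. Comparisons used the quasi-likelihood test of edgeR 4.0.16 (R 4.3.3) on all 30 libraries, robust, with 24 residual degrees of freedom, adjusted by Benjamini-Hochberg over 15587 genes, and a call means an adjusted p under 0.05. The code was tested on simulated data. The 10 comparisons were genotype (3), exercise (2), age (2), exercised heterozygotes against regular-activity wild types, and 2 interactions. CPM uses the TMM-scaled totals. Log2 CPM adds a prior count of 2, and n is 5 per group. Positions and exon lengths come from GENCODE M21 (GRCm38), which held 52403 of the gene IDs, and promoters from RefSeq.

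The genes and lists were chosen with earlier results of these data known. Values per library are given for the genes called (up to 4 per comparison by smallest p) or otherwise for the 2 with the smallest p, and called genes of the related lists are named, except 1 that is not reported here; Mccc2, Cs and Sdha were added after their values were seen. Of 64 related genes listed, 62 were tested. Alternatives were DESeq2 1.42.0, limma-voom (limma 3.58.1), other scaling and filters, own groups only, a replicate block, a threshold of 0.01 and leaving out each library. The removal of length and GC trends, and of libraries that stood apart, was chosen after seeing the data.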

Additional observations from a re-analysis of the deposited data

Results flagged for a closer look

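Each value here lay far from the other 4 of its group, with a gap to the nearest of them above 0.71 of the group's range. Of 174 groups of 5 examined 24 had such a value, and chance gives about 1 in 20 for a single group. The groups share libraries and genes, so the 24 values are not separate events and their number is not a test.

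Exercised heterozygote 4 was low in the mean log2 CPM of the 37 genes (7.27, others 7.82 to 8.04), of oxoglutarate dehydrogenase and succinyl-CoA ligase (8.29, others 8.80 to 9.0) and of transamination and branched-chain ketoacid dehydrogenase (5.51, others 6.44 to 6.59). It was also low in Aldh6a1 (161.6 CPM, others 273.8 to 298.5), Ogdh (2892 CPM, others 3872 to 3961), Ppm1k (112.7 CPM, others 223.8 to 250.7) and Sdhc (361.7 CPM, others 545.6 to 591.3). Exercised wild type 1 was low in Idh2 (1101 CPM, others 1680 to 1849) and Sdhc (415 CPM, others 548.5 to 570.7), and exercised wild type 2 high in Ogdh (4253 CPM, others 3774 to 3892).

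Regular-activity heterozygote 2 was the highest of its group in the mean log2 CPM of the 37 genes (7.90, others 7.73 to 7.77), of the steps from citrate synthase to oxoglutarate (9.68, others 9.43 to 9.50) and of oxoglutarate dehydrogenase with succinyl-CoA ligase (8.78, others 8.64 to 8.67). The same library was high in Idh2 (2065 CPM, others 1341 to 1529) and Mccc2 (65.1 CPM, others 53.19 to 55.12). Heterozygote 5 of that group was high in Dld (275.8 CPM, others 184.1 to 204.2), and regular-activity wild type 5 low in transamination and branched-chain ketoacid dehydrogenase (6.37, others 6.68 to 6.76, mean log2 CPM).

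At 3 months wild type 3 was low in Idh3g (645.8 CPM, others 693.7 to 707.5) and Sdhc (563.7 CPM, others 716.8 to 762.6). Heterozygote 1 was low in oxoglutarate dehydrogenase and succinyl-CoA ligase (8.85, others 8.92 to 8.95, mean log2 CPM). Heterozygote 3 was high in the mean log2 CPM of the 37 genes (8.20, others 8.02 to 8.06), of succinate dehydrogenase (9.91, others 9.64 to 9.71) and of transamination and branched-chain ketoacid dehydrogenase (6.78, others 6.52 to 6.58), and in Sdhd (730.4 CPM, others 538.6 to 586.4).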

How the results depend on the processing

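None of the 33 pairs of gene and comparison chosen by call or smallest p changed direction in any alternative. Mccc2, Cs and Sdha were not followed in the comparisons where their library values are given. No median of the 37 genes moved by more than the pooled SD of their mean level between replicates, 0.17 log2 CPM. That is a coarse measure. Without exercised heterozygote 4 the median went from -0.22 to -0.12 for genotype with exercise. For exercised heterozygotes against regular-activity wild types it went from -0.25 to -0.14. Medians near 0 did change sign when 1 library was left out, ranging from -0.08 to 0.0091 for genotype at 3 months, -0.08 to 0.13 for exercise in heterozygotes, -0.07 to 0.0078 for age in wild types and -0.05 to 0.16 for the genotype-by-exercise interaction. Without the low-count filter those for exercise in heterozygotes (-0.02) and age in wild types (0.01) changed sign too. Counts of genes called (adjusted p under 0.05 unless stated) moved, and calls over all genes moved with many of them. At 6 months with regular activity 0 became 2 with own groups only and 9 with limma-voom (all genes 21, 218 and 476), and with exercise 0 became 2 with limma-voom (all genes 63 and 194). For exercise in wild types 4 became 10 with limma-voom and 2 with a replicate block, a threshold of 0.01 or length and GC trends removed (all genes 1511, 2769, 1339, 674 and 955). For exercise in heterozygotes 4 became 10 with limma-voom, 1 with own groups only, 0 at a threshold of 0.01, 2 with trends removed and 7 without exercised wild type 1 and heterozygote 4 (all genes 1375, 2835, 1279, 578, 1115 and 1610). For exercised heterozygotes against regular-activity wild types 10 became 6 with own groups only and 5 at 0.01 (all genes 2046, 2044 and 1009). For age in wild types 1 became 0 with a replicate block, without the low-count filter and at 0.01 (all genes 134, 96, 104 and 43). For age in heterozygotes 4 became 10 with limma-voom, 7 with trends removed, 2 without mitochondrial and the 10 most abundant genes, and 1 with a replicate block, without the filter, with DESeq2 size factors, at 0.01 or without the library labelled heterozygote 3 at 3 months (all genes 534, 1367, 677, 481, 395, 341, 484, 143 and 327). The cause was not tested.

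Leaving out 1 library at a time gave 0 genes for both interactions and for genotype in either age group on regular activity, 0 to 1 for genotype with exercise, 2 to 4 and 0 to 5 for exercise in wild types and heterozygotes, 7 to 12 for exercised heterozygotes against regular-activity wild types, and 0 to 1 and 1 to 5 for age in wild types and heterozygotes. Replicate numbers did not pair libraries: same-numbered libraries had correlations of -0.25 to 0.15 between their deviations, and in no comparison were all pairs over 0.1. Counts limit the least abundant genes most, with 134 in 1 library for Mccc1.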
